A study of Mus musculus with 20 samples.

Results

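Expression of 38 genes of the cell cycle and of DNA replication was followed in the salivary glands (SGs) of C57BL/6J mice aged 4, 8, 12 and 16 weeks. The genes were taken by symbol. Each was read on the probe set, annotated to that symbol alone, that had the highest mean over the 20 arrays. By this rule 37 of the 38 were measured among 18194 genes in all. The exception was Ccnb1, cyclin B1, whose probe set carried several symbols. Of the measured genes, 14 act in S phase and DNA replication, 16 in mitosis, 5 are G1 cyclins and kinases and 2 are inhibitors of cyclin-dependent kinases. Each age held 5 mice, each on its own array, and the mice serve as the healthy comparison for the autoimmune strain C57BL/6.NOD-Aec1Aec2, which was not analysed here. The labels state no treatment and name all mice as male, and the paper describes the glands as taken without lymph nodes. Values are log2 signals after robust multichip averaging (RMA), and every difference given is on that log2 scale.

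A cell that divides copies its DNA in S phase and separates the copies in mitosis. Cyclin D with Cdk4 opens the way out of G1, cyclin E with Cdk2 starts S phase, the minichromosome maintenance (Mcm) proteins unwind DNA at the replication fork, and ribonucleotide reductase supplies the deoxynucleotides. Cyclins A and B with Cdk1 then drive mitosis, the spindle checkpoint holds the chromosomes until they are attached, and the anaphase-promoting complex ends the phase by marking cyclins for destruction. In rodents the SGs go on growing after birth, and the granular ducts of the submandibular gland mature around puberty, after which few gland cells divide.

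The bases before the gene starts are shown first, because S phase and mitotic genes are known to be read through different sites there. The windows hold the 250 bases before the annotated start of each gene (RefSeq, GRCm38.p6) and are printed 5′ to 3′ on the strand of the gene. Mki67 (chr7:135716380-135716629, minus strand), Ccnb2 (chr9:70421555-70421804, minus strand), Pcna (chr2:132253181-132253430, minus strand) and Rrm1 (chr7:102441445-102441694, plus strand) are given since the results turn on them. Capitals mark CCAAT or its complement ATTGG, the letters of the box bound by NF-Y, and TTTGAA or its complement TTCAAA. The latter are the core letters of the cell cycle homology region, through which mitotic genes are kept silent in resting cells. A match of letters alone does not make a stretch such an element.
Mki67: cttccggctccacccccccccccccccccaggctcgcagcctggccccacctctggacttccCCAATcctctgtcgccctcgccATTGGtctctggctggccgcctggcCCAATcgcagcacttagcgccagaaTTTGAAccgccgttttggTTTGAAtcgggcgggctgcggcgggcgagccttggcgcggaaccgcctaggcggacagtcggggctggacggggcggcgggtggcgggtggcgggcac
Ccnb2: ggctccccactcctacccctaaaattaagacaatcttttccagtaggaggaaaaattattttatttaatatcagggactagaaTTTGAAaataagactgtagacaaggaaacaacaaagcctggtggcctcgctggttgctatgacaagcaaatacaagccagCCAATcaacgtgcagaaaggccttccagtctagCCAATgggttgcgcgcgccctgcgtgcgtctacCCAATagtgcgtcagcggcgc
Pcna: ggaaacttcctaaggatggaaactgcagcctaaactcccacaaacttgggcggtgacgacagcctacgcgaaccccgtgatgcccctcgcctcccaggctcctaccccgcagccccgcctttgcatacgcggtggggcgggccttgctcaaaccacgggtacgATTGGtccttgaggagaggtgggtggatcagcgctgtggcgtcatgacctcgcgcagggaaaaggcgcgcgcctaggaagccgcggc
Rrm1: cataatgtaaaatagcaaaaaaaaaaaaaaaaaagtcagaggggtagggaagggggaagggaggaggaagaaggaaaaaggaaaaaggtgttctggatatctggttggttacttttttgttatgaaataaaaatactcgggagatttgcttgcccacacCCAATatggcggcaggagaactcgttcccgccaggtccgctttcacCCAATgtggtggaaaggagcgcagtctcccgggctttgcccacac

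In Mki67, 3 CCAAT matches started 188, 166 and 141 bases before the gene start and 2 TTTGAA matches started 116 and 98 bases before it. In Ccnb2, 3 CCAAT matches started 87, 54 and 21 bases before the start, and 1 TTTGAA match lay upstream of them, at 167 bases. Pcna held 1 match of CCAAT, 87 bases before its start, and Rrm1 held 2, at 91 and 45 bases. A window was found for 31 of the 38 genes and was not found for Aurkb, Ccna2, Ccnd1, Ccnd2, Ccne2, Gmnn and Mcm4. CCAAT was present in 13 of 15 windows of mitotic genes, Ccnb1 included, and 9 of 12 windows of S phase genes (11 genes), against 33.8% of all 32851 windows. TTTGAA was present in 7 of 15 mitotic windows and 1 of 12 S phase windows, against 16.0% of all windows. The E2F-type letters TTTCGCGC, TTTGGCGC, TTTCCCGC or TTTGCCGC, on either strand and with overlapping matches counted apart, were present in 1 of 15 mitotic windows and 4 of 12 S phase windows, against 1.86% of all windows. The 4 S phase windows with E2F-type letters belonged to Cdc6, Mcm5, Mcm6 and Mcm7, and the mitotic window to Cdk1. These are matches of letters, not measured binding.

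Before the ages were compared, the arrays were checked against their labels. Xist, the RNA of the inactive X chromosome in females, had signals of 8.96 to 10.7 in all 20 mice, at or above the 96.3 percentile of genes on each array, and Eif2s3y, a Y-linked gene, had 2.07 to 2.97, although every mouse is labelled male. Both genes thus went against the labelled sex in all 20 mice. The other Y-linked genes read were not as low, with Kdm5d at the 12.4 to 31.2 percentile and Uty at the 30.9 to 59.4 percentile. Acinar genes marked the tissue: Aqp5, the water channel of saliva, lay at the 99.0 percentile of mean signal and Lpo, lactoperoxidase, at the 99.5 percentile. The spread of gene values within an array (SD) differed between ages, with means of 1.68, 1.498, 1.64 and 1.51 at 4, 8, 12 and 16 weeks and extremes of 1.90 in mouse 5 at 4 weeks and 1.38 in mouse 5 at 8 weeks. Between 8 and 4 weeks the 9097 genes of higher mean signal had a median difference of -0.12 and the 9097 of lower signal 0.14. Of the 37 genes, 20 belonged to the genes of lower signal, 11 of them mitotic and 8 of S phase.

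Between 4 and 8 weeks of age, 3 of the 37 genes fell and none rose (limma, Benjamini-Hochberg adjustment over all genes). They were Pcna, the clamp that holds DNA polymerase on its template, Mki67, the proliferation antigen Ki-67 that coats mitotic chromosomes, and Rrm1, the large subunit of ribonucleotide reductase. The 3 genes were 8.11% of the genes measured, against 7.39% of all genes called in this comparison, or 4.13% called lower. Without adjustment 10 of the 37 had a p below 0.05, against 32.4% of all genes. The share called was thus near that of the whole array. As the glands were measured whole, fewer dividing cells and less RNA per dividing cell cannot be told apart.

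Pcna (probe set 1417947_at) had signals of 6.43, 6.10, 5.71, 6.52 and 6.00 in the 5 mice of 8 weeks, against 6.85, 6.46, 7.65, 7.73 and 7.84 in those of 4 weeks. Of the 4-week mice, 4 lay above every 8-week mouse, while mouse 2 overlapped them. The difference was -1.16 (SE 0.24, adjusted p = 0.0207), which left 44.9% of the signal at 4 weeks. Signals at 12 weeks were 6.75, 6.39, 6.76, 6.82 and 6.75, and those at 16 weeks were 6.75, 6.34, 6.44, 5.80 and 6.29. The difference between 16 and 4 weeks was -0.98 (SE 0.24, adjusted p = 0.0302), while that between 12 and 4 weeks was -0.61 (SE 0.24, adjusted p = 0.482). Pcna was called in the F-test over the 4 ages as well (adjusted p = 0.0349).

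Mki67 (1426817_at) had signals of 5.60, 5.30, 5.07, 5.61 and 5.52 at 8 weeks, against 6.12, 6.02, 5.98, 6.08 and 6.41 at 4 weeks. No value at 8 weeks reached the lowest at 4 weeks, and the difference was -0.70 (SE 0.16, adjusted p = 0.0264). At 12 weeks the values were 5.15, 5.22, 5.22, 5.30 and 5.17, a range of 5.15 to 5.30 that lay wholly below the 4-week mice. The difference between 12 and 4 weeks was -0.91 (SE 0.16, adjusted p = 0.034), or 53.1% of the signal at 4 weeks. It kept its size but was no longer called on leaving out any 1 of the 10 mice of these ages (adjusted p up to 0.113). At 16 weeks the values were 6.01, 5.17, 5.55, 5.09 and 5.05. Mouse 1 at 16 weeks lay within the range of the 4-week mice, and the other 4 lay below it. The difference between 16 and 4 weeks was -0.75 (SE 0.16, adjusted p = 0.0189). Among the 37 genes Mki67 had the smallest adjusted p in the F-test over the ages (0.0196), and it has 1 probe set.

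Rrm1 (1415878_at) had signals of 5.84, 5.84, 5.28, 5.68 and 5.53 at 8 weeks, against 6.22, 5.98, 6.16, 6.23 and 6.31 at 4 weeks. The groups did not overlap, and the difference was -0.55 (SE 0.14, adjusted p = 0.0315). Signals at 16 weeks were 5.81, 5.46, 5.65, 5.50 and 5.71, again below all 4-week mice (difference -0.56, SE 0.14, adjusted p = 0.0356). The 12-week mice had 5.88, 5.74, 6.38, 5.74 and 5.90, of which mouse 3 lay above every 4-week mouse. The call rests on 1 of the 3 probe sets of Rrm1. The others differed by 0.52 (1448127_at, SE 0.18, adjusted p = 0.0711) and 0.56 (1440073_at, SE 0.19, adjusted p = 0.0719) between 8 and 4 weeks, in the opposite direction (p adjusted over all probe sets), and the mean of the 3 probe sets differed by 0.18 (adjusted p = 0.239). Between 16 and 4 weeks these 2 probe sets differed by 0.36 and 0.10, and the mean of the 3 by -0.033 (adjusted p = 0.875).

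**Figure D1:**
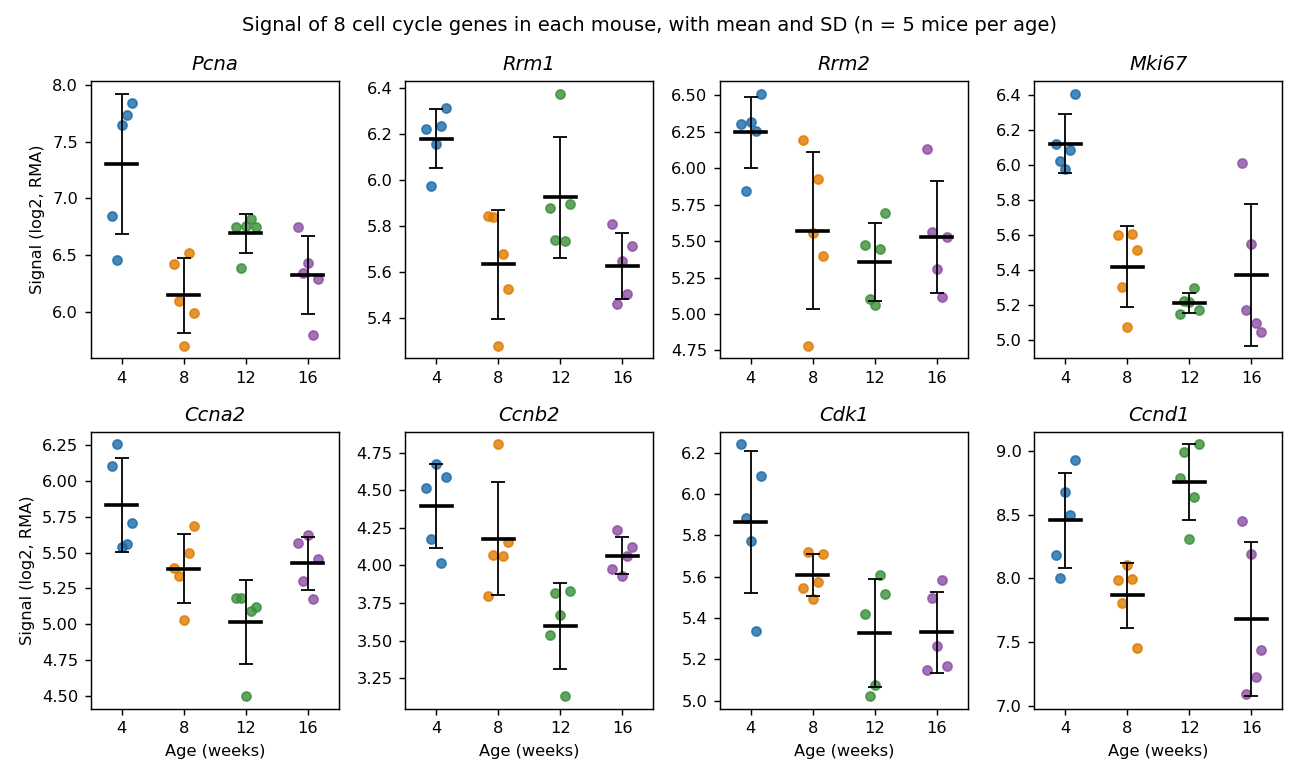
Log2 RMA signal (y axes, not starting at 0) of Pcna, Rrm1, Rrm2, Mki67, Ccna2, Ccnb2, Cdk1 and Ccnd1 in each mouse aged 4, 8, 12 or 16 weeks (x axes). Points are mice in order of their number, lines are means and bars are SD (n = 5 per age). Mki67 lies between 5.15 and 5.30 at 12 weeks and at 5.98 or above at 4 weeks, and Ccnd1 is high at 4 and 12 weeks.

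These calls moved with the spread of the arrays. With the SD of each array as a covariate, 0 of the 37 genes were called between 8 and 4 weeks, and the differences shrank to -0.63 for Pcna (adjusted p = 0.243), -0.40 for Mki67 (adjusted p = 0.344) and -0.38 for Rrm1 (adjusted p = 0.386). In that fit 0.0879% of all genes were called. The difference of Mki67 between 12 and 4 weeks, ages whose array SD differed little, was -0.85 there (SE 0.13, adjusted p = 0.00129). Without mouse 4 or mouse 5 of 4 weeks, or without mouse 3 or mouse 5 of 8 weeks, 0 of the 37 genes were called between 8 and 4 weeks, and 0.0769% to 0.121% of all genes were. Of 6 fibroblast markers, 3 fell over the same interval (Col1a2, Col3a1 and Lum), and the mean signal of the 6 lay at 6.35 to 7.21 in the 8-week mice, against 7.55 to 8.15 in the 4-week mice. Of 7 T and NK cell markers Cd3e rose, and of 8 macrophage markers Cd68 fell, while 0 of 6 endothelial markers were called. The mean signal of the T and NK cell markers overlapped, at 5.47 to 5.62 in the 8-week mice and 5.05 to 5.62 in the 4-week mice. None of 8 B and plasma cell markers was called, but all 8 had higher means at 8 weeks (median difference 0.40), and their mean signal lay at 5.42 to 5.67 in the 8-week mice, against 4.86 to 5.30 in the 4-week mice. Of 18 salivary gland genes, the kallikreins Klk1b1 and Klk1b5 rose and Lpo fell, and 14 of the 18 had lower means at 8 weeks (median difference -0.74). Their mean signal overlapped, at 7.20 to 9.20 in the 8-week and 7.96 to 9.74 in the 4-week mice. With all mice and no covariate, 7.39% of all genes were called. Of the 9097 genes of lower signal 6232 had higher means at 8 weeks, and of the 9097 of higher signal 5350 had lower means. Of 8 basal and myoepithelial markers Myh11 fell and 6 had lower means (median difference -0.34), and 0 of 4 adipocyte markers were called. The part of these cell types in the result was not tested.

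The other S phase genes showed smaller differences. Rrm2, the small subunit of ribonucleotide reductase (1434437_x_at), had signals of 6.30, 5.85, 6.31, 6.25 and 6.51 at 4 weeks, 6.20, 4.78, 5.56, 5.92 and 5.40 at 8 weeks, 5.48, 5.11, 5.06, 5.45 and 5.69 at 12 weeks and 6.13, 5.56, 5.31, 5.12 and 5.53 at 16 weeks. Each 12-week mouse lay below each 4-week mouse, with a difference of -0.89 (SE 0.23, adjusted p = 0.206). Its difference between 8 and 4 weeks was -0.67 (SE 0.23, adjusted p = 0.0633), and that between 16 and 4 weeks was -0.72 (SE 0.23, adjusted p = 0.0734). Both subunits of the reductase thus had lower means at 8 and 16 than at 4 weeks on the probe sets used, and the large subunit alone passed the threshold. The other Rrm2 probe sets differed by -0.06 (1416120_at) and -0.17 (1448226_at) between 8 and 4 weeks and by 0.15 and -0.36 between 16 and 4 weeks, and the mean of its probe sets by -0.30 between 8 and 4 weeks.

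All 6 genes of the Mcm2 to Mcm7 helicase, which unwinds DNA ahead of the polymerases, had lower means at 8 than at 4 weeks, with differences of -0.35 to -0.01 and no adjusted p below 0.157. On the probe sets used their intervals (95%) ran from -0.71 to 0.31. A second probe set of Mcm7 (1438320_s_at) differed by -0.88 (SE 0.41, adjusted p = 0.157), where the one used differed by -0.01. Mcm3 (1426653_at) had signals of 5.05, 5.05, 4.78, 4.78 and 4.70 at 4 weeks, 4.02, 4.33, 4.85, 4.76 and 4.91 at 8 weeks, 4.28, 4.45, 4.74, 4.59 and 4.22 at 12 weeks and 4.60, 4.98, 4.78, 4.60 and 4.91 at 16 weeks, and these ranges overlapped. A second probe set of Mcm3 (1420029_at) was called higher at 8 weeks (0.50, SE 0.14, adjusted p = 0.0376) and a second probe set of Mcm6 (1438852_x_at) was called lower (-0.84, SE 0.22, adjusted p = 0.0333). Uncalled probe sets were higher at 8 weeks for Mcm5 (1459658_at, 0.16), Mcm6 (1447756_x_at, 0.33) and Mcm7 (1416030_a_at, 0.11, and 1439269_x_at, 0.07). Hence the direction of Mcm3, Mcm5, Mcm6 and Mcm7 depended on the probe set, while all probe sets of Mcm2 and Mcm4 were lower.

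Cdc6, which loads the helicase at origins (1417019_a_at), had 2.90, 3.04, 3.33, 3.08 and 2.77 at 4 weeks, 3.23, 3.32, 3.08, 3.11 and 3.82 at 8 weeks, 3.18, 2.70, 3.31, 2.66 and 3.13 at 12 weeks and 2.39, 2.81, 3.08, 3.26 and 2.98 at 16 weeks. Its probe set lay at the 5.55 percentile of mean signal, and it was not called in any comparison (12 minus 8 weeks: -0.31, SE 0.18, adjusted p = 0.34). Gmnn, geminin, which blocks a second loading of the helicase, and Ccne2, cyclin E2, were as dim, at the 4.78 and 6.96 percentiles. Tyms, thymidylate synthase, and Ccne1, cyclin E1, had age means within 0.28 and 0.27 of each other. Of the 14 S phase genes, 10 had their highest mean at 4 weeks (71.4%), as had 10 of the 16 mitotic genes (62.5%), against 29.3% of all genes. Among 47 other replication genes the share was 38.3%, and their median difference between 8 and 4 weeks was -0.0008, with 23 higher and 24 lower. Among 60 other mitotic genes the share was 21.7%, near the 21.0% of the genes of lower signal. Of these 60, 46.7% had their highest mean at 8 weeks, against 35.7% of all genes and 47.1% of the genes of lower signal. The median difference of these 60 between 8 and 4 weeks was 0.12, with 39 higher and 21 lower, beside a median of 0.14 over the genes of lower signal. The median difference of the 14 S phase genes was -0.17 between 8 and 4 weeks, 0.00 between 12 and 8 weeks and -0.14 between 16 and 12 weeks, beside medians of 0.05, -0.05 and -0.02 over all genes.

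Most of the 16 measured mitotic genes had their lowest means at 12 weeks. On the probe sets used, the mean of all 16 measured mitotic genes was lower at 12 than at 8 weeks, by 0.03 to 0.58. Between 12 and 16 weeks that of 15 of the 16 was higher. None of these single differences was called by limma: 5 of the 16 had an unadjusted p below 0.05 in the first comparison and 4 in the second. The other probe sets of these genes were also lower at 12 than at 8 weeks, except 1442454_at of Top2a (0.10), 1416664_at of Cdc20 (0.15) and 1452315_at of Kif11 (0.00). Among all 37 genes the numbers called were 0 in both comparisons, with 9 and 7 genes below 0.05 unadjusted, while 0.0055% and 0.192% of all genes were called and 18.8% and 14.2% lay below 0.05 unadjusted. By mean, 13 of the 16 mitotic genes were lowest at 12 weeks (81.2%), against 21.0% of all genes and 28.5% of the genes of lower signal. The 60 other mitotic genes did not share this, as 31.7% of them were lowest at 12 weeks and 36.7% at 4 weeks.

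Averaged over the 16 mitotic genes, the signals were 5.07, 4.94, 5.01, 4.86 and 4.93 in the mice of 4 weeks and 4.79, 4.83, 5.07, 4.80 and 5.14 in those of 8 weeks. They were 4.69, 4.64, 4.65, 4.65 and 4.69 at 12 weeks and 4.76, 4.96, 4.88, 5.02 and 4.76 at 16 weeks. The 12-week mice, at 4.64 to 4.69, lay below each of the other 15 mice, the lowest of which had 4.76. The averages over the 14 S phase genes were 5.13, 5.03, 5.15, 5.27 and 5.27 at 4 weeks, 5.00, 4.94, 4.92, 4.94 and 4.98 at 8 weeks, 4.96, 4.89, 5.09, 5.00 and 5.06 at 12 weeks and 5.01, 4.89, 4.99, 4.84 and 4.82 at 16 weeks. Every 8-week mouse lay below every 4-week mouse, and the 3 later ages overlapped. Members were chosen with results known, so these averages carry no test, and the difference between the S phase and mitotic genes was not tested.

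**Figure D2:**
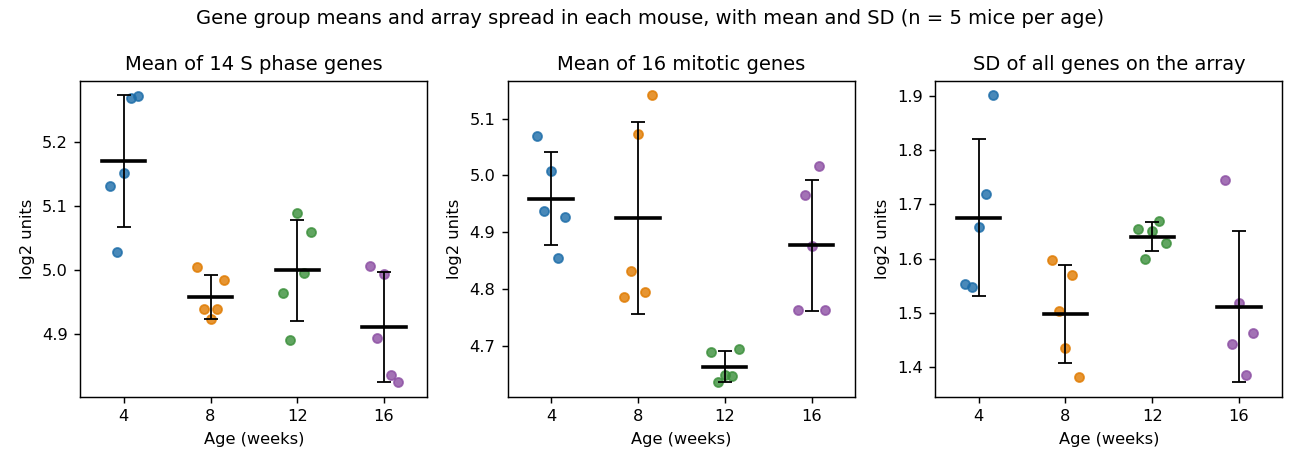
Mean log2 signal of the 14 S phase genes (left) and of the 16 mitotic genes (middle), and SD of all gene values on the array (right), in each mouse aged 4, 8, 12 or 16 weeks. Lines are means and bars are SD (n = 5 per age), and the y axes do not start at 0. The S phase mean is highest at 4 weeks, the mitotic mean of the 12-week mice (4.64 to 4.69) lies below all others, and the array SD is high at 4 and 12 weeks.

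Ccnb2, cyclin B2, the partner of Cdk1 at entry into mitosis (1450920_at), had signals of 3.54, 3.82, 3.67, 3.13 and 3.83 at 12 weeks, against 3.79, 4.07, 4.81, 4.06 and 4.16 at 8 weeks. The difference was -0.58 (SE 0.18, adjusted p = 0.143), and 1 8-week mouse lay within the range of the 12-week mice. Signals were 3.97, 4.24, 3.93, 4.06 and 4.12 at 16 weeks and 4.52, 4.18, 4.68, 4.02 and 4.59 at 4 weeks, all above the highest 12-week mouse. Of the 37 genes Ccnb2 alone did not overlap between 16 and 12 weeks, against 0.791% of all genes that were higher without overlap. The difference between 16 and 12 weeks was 0.47 (SE 0.18, adjusted p = 0.268) and that between 12 and 4 weeks was -0.80 (SE 0.18, adjusted p = 0.124).

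Ccna2, cyclin A2, which acts in S phase and early mitosis (1417910_at), had 6.10, 6.26, 5.54, 5.56 and 5.70 at 4 weeks, 5.39, 5.33, 5.03, 5.49 and 5.69 at 8 weeks, 5.18, 5.18, 4.50, 5.09 and 5.12 at 12 weeks and 5.57, 5.30, 5.63, 5.17 and 5.46 at 16 weeks. It was called in the F-test over the ages (adjusted p = 0.0497) and in none of the pairs. All 12-week mice lay below all 4-week mice (difference -0.82, SE 0.17, adjusted p = 0.0861). Its second probe set (1417911_at) differed by 0.35 between 8 and 4 weeks, where the first differed by -0.45, so that the F-test call rests on the first. With the mean of both probe sets the adjusted p of the F-test was 0.183.

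Between 12 and 4 weeks, 6 of the 37 genes had values that did not overlap, all lower at 12 weeks, against 0.78% of all genes. They were Mki67, Ccna2, Ccnb2, Rrm2, Cdc20, the activator of the anaphase-promoting complex (-0.70, SE 0.21, adjusted p = 0.349), and Cdk4 (-0.57, SE 0.25, adjusted p = 0.512). Only Mki67 was called there, as 1 of 17 genes on the array (0.0934%), 5 of which were lower (0.0275%). Without adjustment 12 of the 37 had a p below 0.05, against 9.03% of all genes. In the wider lists, 0 of 47 other replication genes and 2 of 60 other mitotic genes were lower at 12 weeks without overlap. Their median differences were -0.05 and -0.01. Between 8 and 4 weeks 3 genes did not overlap, all lower at 8 weeks (Mki67, Rrm1 and Mad2l1), against 1.96% of all genes. Mad2l1 encodes the checkpoint protein Mad2 and differed by -0.27 (SE 0.12, adjusted p = 0.131).

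Cdk1, the kinase that drives mitosis (1448314_at), had age means of 5.86, 5.61, 5.33 and 5.33 at 4, 8, 12 and 16 weeks, and differed by -0.53 between 16 and 4 weeks (SE 0.16, adjusted p = 0.0632). Bub1b, the checkpoint kinase BubR1, had means of 5.74, 5.82, 5.44 and 5.87, with the 12-week value lowest (12 minus 8 weeks: -0.37, SE 0.13, adjusted p = 0.178). Kif11, the motor that pushes the spindle poles apart (1452314_at), had 4.34, 4.66, 4.11, 4.73 and 4.08 at 12 weeks, against 4.68, 4.26, 5.16, 4.79 and 5.54 at 8 weeks (difference -0.50, SE 0.22, adjusted p = 0.23). Its values were 4.27, 5.17, 4.76, 5.02 and 4.87 at 16 weeks and 4.86, 4.47, 4.20, 4.62 and 4.39 at 4 weeks, and all ages overlapped. The other Kif11 probe sets differed by 0.00 (1452315_at) and -0.07 (1435306_a_at) between 12 and 8 weeks.

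Top2a, the topoisomerase that untangles sister chromatids (1427724_at), had 5.21, 5.10, 5.38, 4.66 and 4.43 at 4 weeks, 4.82, 5.62, 5.83, 5.16 and 5.35 at 8 weeks, 5.06, 5.12, 4.89, 4.61 and 5.06 at 12 weeks and 5.18, 6.07, 5.28, 5.84 and 4.95 at 16 weeks. The difference between 16 and 12 weeks was 0.52 (SE 0.23, adjusted p = 0.315). Its 3 probe sets did not have the same direction between 8 and 4 weeks, with 0.40 on the probe set used and -0.21 and -0.36 on the others.

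Cenpa, the histone variant that marks centromeres (1441864_x_at), was the mitotic gene with the largest difference upwards between 8 and 4 weeks. Its signals were 6.20, 6.26, 7.72, 6.05 and 7.14 at 8 weeks, against 5.95, 5.39, 6.64, 5.61 and 5.24 at 4 weeks, with overlap and a difference of 0.91 (SE 0.31, adjusted p = 0.0668). At 12 weeks they were 6.66, 6.22, 6.25, 6.42 and 6.41, and at 16 weeks they were 5.91, 6.89, 6.33, 7.35 and 6.50. The other probe sets differed by 0.36 (1444416_at) and -0.09 (1450842_a_at) between 8 and 4 weeks. The remaining mitotic genes Bub1, Aurka, Aurkb, Plk1, Birc5 and Ube2c, which encode checkpoint and spindle kinases, survivin and an enzyme of the anaphase-promoting complex, had adjusted p of 0.337 or above in the F-test.

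The median difference of the 16 mitotic genes between 12 and 8 weeks was -0.25, and -0.33 to -0.15 over 11 other settings. The sign of single genes depended more on the scaling. After cyclic loess, quantile normalization or with the array SD as a covariate, 12 of the 16 mitotic genes were lower at 12 than at 8 weeks in place of 16, with medians of -0.22, -0.26 and -0.15, while the median of all genes stayed between -0.05 and -0.02. Among the 8-week mice the order of the mitotic averages was exactly the reverse of the order of the array SD. At 4 and 16 weeks the reversal was partial. Mice 4 and 5 of 4 weeks had the highest SDs of their age (1.72 and 1.90) and the lowest averages (4.86 and 4.93). Mouse 4 of 16 weeks had the lowest SD (1.39) and the highest average (5.02). At 12 weeks mouse 2 had the lowest of both (1.60 and 4.64), and as a group the 4-week mice had the highest mean of both. Between 12 and 8 weeks the genes of lower signal had a median of -0.12 and those of higher signal 0.11. In a wider list of 60 other mitotic genes the median was also -0.12, 47 were lower and 19 were lowest at 12 weeks (31.7%), near the 28.5% of all genes of lower signal. In 47 other replication genes the median was -0.07.

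**Figure D3:**
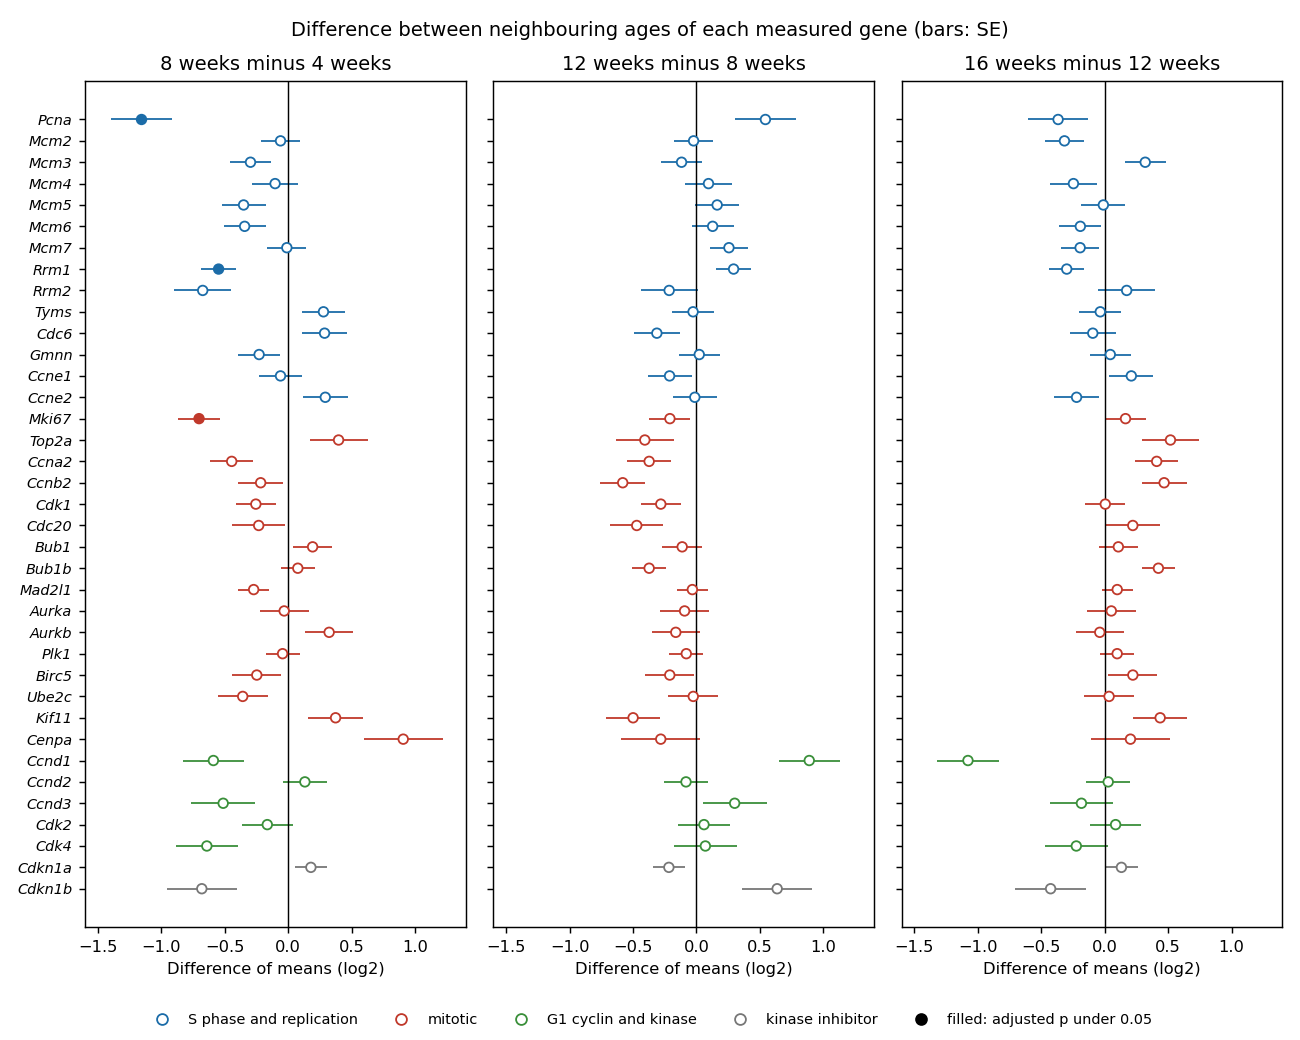
Differences in mean log2 signal (x axes) of each of the 37 genes between neighbouring ages, later minus earlier, with SE bars from the fit (n = 5 mice per age). Genes are ordered and coloured by group, and filled points have an adjusted p below 0.05. Pcna, Rrm1 and Mki67 are filled in the first panel, and the 16 mitotic genes lie left of 0 in the second and, but for Aurkb, at or right of 0 in the third.

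Among the G1 genes Ccnd1, cyclin D1, was called in the F-test over the ages (adjusted p = 0.0398). On its probe set (1448698_at) the signals were 8.79, 8.99, 8.31, 8.64 and 9.05 at 12 weeks, against 7.99, 7.81, 8.10, 7.99 and 7.45 at 8 weeks. All 12-week mice lay above all 8-week mice, as did those of 3.39% of all genes, with a difference of 0.89 (SE 0.24, adjusted p = 0.129). At 16 weeks the signals were 8.45, 7.09, 8.19, 7.22 and 7.44 and at 4 weeks 8.18, 8.00, 8.68, 8.49 and 8.93. The difference between 16 and 12 weeks was -1.08 (SE 0.24, adjusted p = 0.0721), or 47.4% of the signal at 12 weeks. Mice 1 and 3 at 16 weeks, at 8.45 and 8.19, stood above the other 3, and without mouse 1 the difference was called (adjusted p = 0.00781), as were 5.69% of all genes. Over all mice left out in turn its adjusted p reached 0.288. A second probe set (1417420_at) had the same shape, with means of 8.37, 7.66, 8.48 and 7.48 at 4, 8, 12 and 16 weeks. The third (1417419_at) had means of 6.15, 6.16, 6.49 and 5.83, with no lower value at 8 than at 4 weeks. Ccnd1 belongs to the brightest probe sets of the array (95.5 percentile) and was high at the ages of high array SD. With the SD as a covariate its differences were 0.51 between 12 and 8 weeks and -0.73 between 16 and 12 weeks, and the F-test gave an adjusted p of 0.194.

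Cdk4, the kinase partner of cyclin D (1422441_x_at), had 6.02, 6.63, 5.57, 5.84 and 5.25 at 8 weeks, against 6.15, 6.18, 6.40, 6.44 and 7.35 at 4 weeks (difference -0.64, SE 0.25, adjusted p = 0.0884). It had 6.03, 6.06, 5.70, 6.10 and 5.78 at 12 weeks and 6.28, 5.61, 5.27, 5.89 and 5.49 at 16 weeks, and mouse 5 of 4 weeks stood above all others. Its other probe sets also had lower means at 8 weeks, with differences of -0.28 and, on 1422439_a_at, of -1.64 (SE 0.42, adjusted p = 0.0338). Ccnd3, cyclin D3 (1415907_at), had 7.56, 7.44, 7.97, 8.16 and 8.92 at 4 weeks, 7.71, 7.65, 7.65, 7.58 and 6.88 at 8 weeks, 8.18, 7.81, 7.19, 7.86 and 7.93 at 12 weeks and 8.14, 7.73, 7.59, 7.43 and 7.18 at 16 weeks, which overlapped. Its difference between 8 and 4 weeks was -0.51 (SE 0.25), and cyclic loess turned the sign of that between 12 and 8 weeks. Ccnd2, cyclin D2, and Cdk2 had age means within 0.13 and 0.16 of each other.

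Of the inhibitors, Cdkn1b, p27, which holds cells in G1 (1434045_at), had 5.76, 4.38, 5.60, 6.10 and 6.33 at 8 weeks, against 6.11, 6.47, 6.36, 6.61 and 6.01 at 4 weeks. Mouse 2 of 8 weeks lay far below the rest, and the difference was -0.68 (SE 0.28, adjusted p = 0.103). Without this mouse it was -0.37, and with the mean of both probe sets -0.29, since the other (1419497_at) differed by 0.10. It had 6.43, 6.43, 6.25, 6.12 and 6.09 at 12 weeks and 6.62, 5.34, 5.94, 5.74 and 5.58 at 16 weeks. Cdkn1a, p21, which stops the cycle after DNA damage (1424638_at), had 5.86, 6.06, 5.77, 5.99 and 6.09 at 4 weeks, 6.10, 6.19, 6.16, 5.95 and 6.25 at 8 weeks, 5.64, 6.16, 6.15, 5.77 and 5.86 at 12 weeks and 6.14, 5.80, 6.03, 5.95 and 6.32 at 16 weeks. Its difference between 8 and 4 weeks was 0.18 with an interval (95%) of -0.09 to 0.45, and the ages overlapped throughout.

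Mki67, Pcna and Rrm1 were the 3 genes lower at 16 than at 4 weeks (8.11%, against 3.63% of all genes called and 3.12% called lower). Without adjustment 13 of the 37 had a p below 0.05, against 24.2% of all genes, and Rrm1 alone did not overlap, against 1.65% of all genes that were lower without overlap. In the F-test over the ages 4 of 37 genes were called (10.8%), against 2.6% of all genes. Mouse 1 of 16 weeks stood apart in several genes, with the highest value of its age in Mki67, Rrm2, Pcna, Rrm1, Ccnd1 and Cdkn1b among others and the highest array SD of its age (1.74). Without this mouse 7 genes were called between 16 and 4 weeks (16.5% of all genes), adding Ccnd1, Cdk4, Rrm2 and, as higher, Cenpa. In contrast, 0 were called without mouse 5 of 4 weeks or mouse 2, 4 or 5 of 16 weeks (0.445% to 1.19% of all genes), and 0 with the array SD as a covariate (0.813% of all genes).

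**Figure D4:**
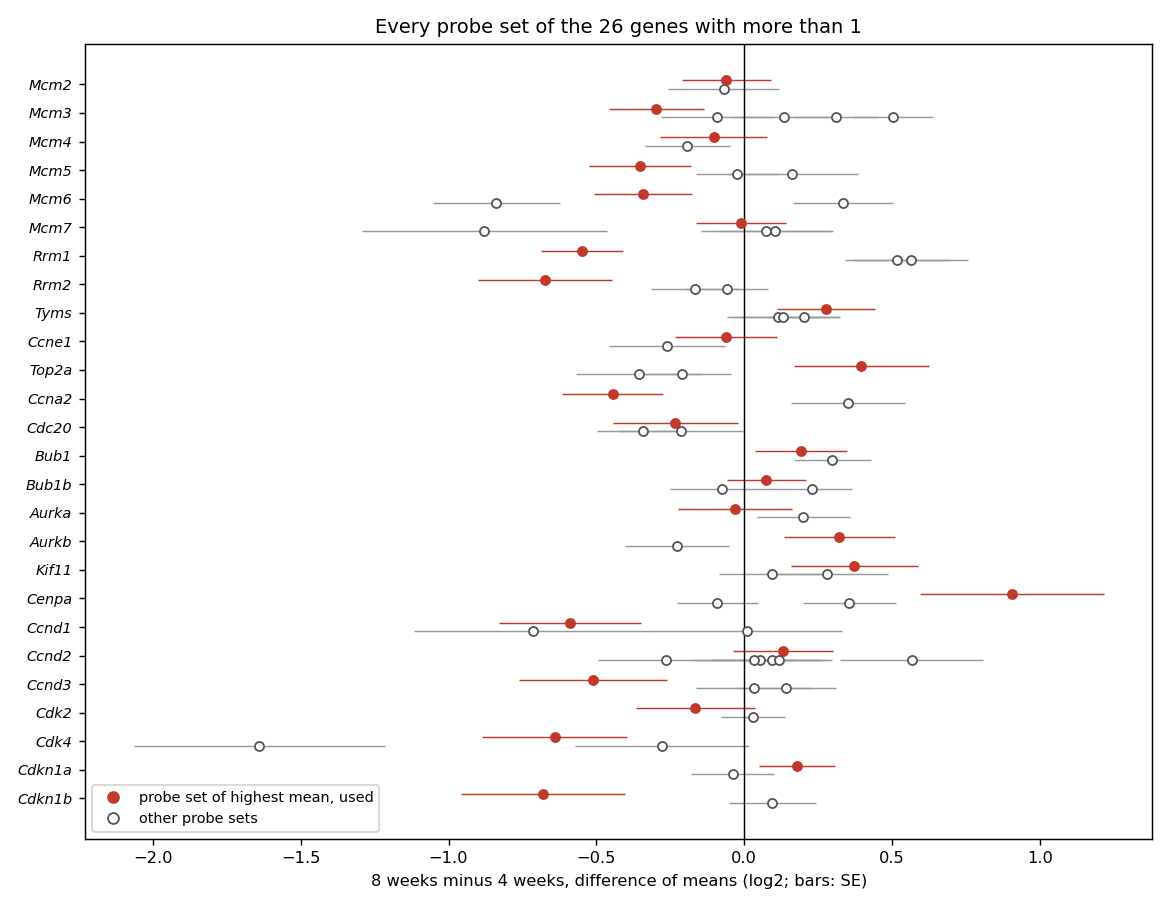
Difference between 8 and 4 weeks in mean log2 signal (x axis, with SE bars, n = 5 mice per age) on each probe set of the 26 genes with more than 1. Filled red points are the probe sets used and open points the others. For 17 of the 26 genes the points lie on both sides of 0, Rrm1, Ccna2 and Top2a among them.

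The probe sets of a gene often parted. Of the 37 genes, 26 had more than 1 probe set, and in 17 of these the probe sets differed in sign between 8 and 4 weeks. Over all 87 probe sets, 6 were called in this comparison, against 6.44% of all probe sets, and they included 1 higher, of Mcm3. Pcna and Mki67 each had 1 probe set of their symbol alone, so that no second one could be set beside it. Of the 37 probe sets used, 6 end in _x_at, those of Rrm2, Cenpa and Cdk4 among them, and 2 in _s_at, endings given to probe sets that can also detect other transcripts.

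Related genes outside the 38 are read against the 7.39% of all genes called between 8 and 4 weeks, with 4.13% called lower. Each was read on 1 probe set, and any other probe sets of these genes were not compared. With the array SD as a covariate 0.0879% of all genes were called in this comparison, and how the calls of the related genes moved was not examined. Of 47 other replication genes, Cdt1, a licensing factor (-0.79, SE 0.24, adjusted p = 0.0493), and Tipin, which steadies stalled forks (-0.48, SE 0.14, adjusted p = 0.0423), fell between 4 and 8 weeks. Of 60 other mitotic genes, Smc4, a condensin subunit (-0.93, SE 0.17, adjusted p = 0.017), and the kinase Pbk (-0.54, SE 0.16, adjusted p = 0.0462) fell, and Cdca2, a phosphatase partner on mitotic chromosomes, rose (0.96, SE 0.24, adjusted p = 0.0303). Smc4 stayed lower at 16 than at 4 weeks (-0.70, SE 0.17, adjusted p = 0.0311).

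Of 51 other regulators, 5 fell between 4 and 8 weeks and 0 rose. Btg1 and Tob1, both brakes on proliferation, fell by 1.57 (SE 0.42, adjusted p = 0.035) and 1.44 (SE 0.30, adjusted p = 0.022), and the inhibitor Cdkn1c, p57, fell by 0.52 (SE 0.16, adjusted p = 0.0497). In mean signal Btg1 and Tob1 lay at the 98.2 and 90.6 percentiles, and the 9097 genes of higher signal had a median difference of -0.12. Ccnh, the cyclin of the Cdk-activating kinase, and Fzr1, which activates the anaphase-promoting complex late in mitosis, fell by 0.68 and 0.62. Wee1, the kinase that inhibits Cdk1, was lower at 16 than at 4 weeks without overlap (-1.0, SE 0.16, adjusted p = 0.00362), and its difference between 8 and 4 weeks was -0.25 (adjusted p = 0.255). Btg1 and Tob1 stayed lower at 16 weeks, where 3.63% of all genes were called (-1.80 and -1.63, adjusted p = 0.0254 and 0.0109). Of 9 replication-dependent histone genes, H1f2, a linker histone, fell between 4 and 8 weeks (-2.10, SE 0.49, adjusted p = 0.0264), without overlap.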

How the data were processed

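Total RNA of the SGs of 20 mice was hybridized separately to Affymetrix whole-genome mouse arrays. The authors deposited log2 signals of 45101 probe sets after RMA (background correction and quantile normalization). Which arrays were normalized together is not given in the sources used here. Array SDs differed, so an alternative used the SD as a covariate. Of the probe sets, 34958 carried 1 gene symbol, 932 several and 9211 were not in the annotation. Symbols of 34754 were matched to the reference by gene ID. The probe set of highest mean stood for each of 18194 genes. All ages entered 1 limma fit (version 3.58.1, R 4.3.3), with 5 differences between ages, an F-test and Benjamini-Hochberg adjustment over all genes at 0.05. The fit was tested on simulated data in which the spread did not differ between arrays. That test therefore cannot show how the differing array SDs affect the calls. Related genes and markers were read from fixed lists. Members and lists were chosen with earlier results of these data known. The named genes were those called, plus the members of each group with the largest differences between neighbouring ages. No filter was set on low signals, no 2 arrays were identical (Pearson r 0.792 to 0.983). Precision is limited by 5 arrays per age. The labels do not say whether mice shared litters or cages.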

Additional observations from a re-analysis of the deposited data

Results flagged for a closer look

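Single mice stood apart from the other 4 of their age in 5 of 76 groups of 5 values, and chance flags about 1 in 20 such groups. At 12 weeks, mouse 2 had a Pcna signal of 6.389, against 6.746 to 6.822 in the others. Mouse 3 of the same age had an Rrm1 signal of 6.377, against 5.736 to 5.897, and a Ccna2 signal of 4.495, against 5.09 to 5.185. At 8 weeks, mouse 5, whose array had the lowest SD, had a Ccnd3 signal of 6.884, against 7.582 to 7.705. At 4 weeks, mouse 5, whose array had the highest SD, had a Cdk4 signal of 7.35, against 6.154 to 6.437.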

How the results depend on the processing

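With 5 mice per age, the calls lay near the threshold. Shares in parentheses are of all genes called. Between 8 and 4 weeks the count of 3 became 0 with only the arrays of both ages (0.011%), with the array SD as a covariate (0.0879%) and, in an alternative chosen after seeing the data, without the arrays of highest and lowest SD (0.0385%). Between 12 and 8 weeks it was 1, Ccnd1, with only the arrays of both ages (1.51%). Between 16 and 12 weeks it was 1, Ccnd1, with array weights (6.4%) and without those 2 arrays (0.539%). Between 12 and 4 weeks it was 4 with the SD covariate (0.605%) and with array weights (0.423%), and 0 without those 2 arrays (0.0385%). Between 16 and 4 weeks it was 0 with only the arrays of both ages (0.412%), with the SD covariate (0.813%) and without those 2 arrays (0.819%), and 6 with array weights (7.63%). For the F-test it was 2 with the mean of the probe sets (1.82%), 2 after quantile normalization (3.14%), 1 with the SD covariate (0.671%), 7 with array weights (8.17%) and 0 without those 2 arrays (0.61%). The labels do not say that the replicate numbers pair the mice. Of 5 same-numbered pairs per comparison, 1 or 2 correlated above 0.1 (-0.561 to 0.453), which cannot show whether the numbers mark a shared batch. With the replicate number as a block, the count was 2 between 8 and 4 weeks (1.35%) and 0 between 12 and 4 weeks (0.033%). It was 1 between 16 and 4 weeks (1.44%) and 0 in the F-test (0.473%).

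The S phase median between 8 and 4 weeks was -0.28 after cyclic loess, and the mitotic median -0.25 after cyclic loess and -0.24 over genes above the 40th percentile of signal. The S phase median between 12 and 8 weeks was 0.12 after cyclic loess, 0.085 after quantile normalization and 0.095 over genes above that percentile, and between 16 and 12 weeks -0.061 after quantile normalization and -0.25 over genes above it. Signs turned for Rrm1 between 8 and 4 weeks with the mean of its probe sets (0.18), for Ccnd3 between 12 and 8 weeks after cyclic loess (-0.057) and with the SD covariate (-0.12), and with that covariate between 16 and 12 weeks for Pcna (0.014) and Cdk4 (0.11).

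Leaving out 1 mouse at a time gave 0 to 5 genes between 8 and 4 weeks (0.0769% to 14.8%), 0 between 12 and 8 weeks (0.0055% to 1.24%), 0 to 1 between 16 and 12 weeks (0.0495% to 5.69%), 0 to 2 between 12 and 4 weeks (0.033% to 0.121%), 0 to 7 between 16 and 4 weeks (0.445% to 16.5%) and 0 to 7 in the F-test (0.467% to 14.4%). The count between 8 and 4 weeks was 5 without mouse 1 or 4 of 8 weeks or mouse 1 of 16 weeks. That between 12 and 4 weeks was 0 without any single mouse of either age, with an adjusted p of Mki67 of up to 0.113. That between 16 and 4 weeks was 0 without mouse 5 of 4 weeks or mouse 2, 4 or 5 of 16 weeks. Medians ranged from -0.21 to -0.11 (S phase) and -0.19 to -0.08 (mitotic) between 8 and 4 weeks, from -0.03 to 0.06 and -0.30 to -0.21 between 12 and 8 weeks, and from -0.18 to -0.11 and 0.11 to 0.24 between 16 and 12 weeks.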
